A study of Mus musculus with 24 samples.

Results

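The response of the TO line to differentiation medium was measured in 8 of the 24 samples of the series, 4 in differentiation medium (TO-d) against 4 in proliferation medium (TO-p). The samples were taken by their titles, and no measured value chose them. All samples are cells of N1E-115, a mouse neuroblastoma line that is used as a neuron model because low serum or dimethyl sulfoxide (DMSO) makes it put out neurites. TO cells carry a construct for a chimeric protein that joins transcobalamin, the blood carrier of the vitamin cobalamin, to oleosin, a plant oil body protein, in the N-terminal arrangement, and the TO protein is described as a strong binder of cobalamin. The other lines of the series are OT, with the C-terminal arrangement for which cobalamin binding was not detected, and WT, which was not transfected. Each of these was also measured in both media (WT-p, WT-d, OT-p and OT-d, with 4 samples each). Proliferation medium held 10% fetal calf serum, and differentiation medium held 2.5% serum with 1.25% DMSO, so that less serum and the solvent came together and their parts cannot be told apart. The labels describe gentle trypsin treatment and replating on the day before for the differentiation arm, which likewise cannot be told apart from the medium. The labels do not give the promoter of the construct, the number of transfected clones, the time in the medium or whether the 4 samples of a group were separate cultures.

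Neuroblastoma cells come from the sympathetic branch of the neural crest, and many lines keep dividing only while serum growth factors hold the cell cycle machinery active. On differentiation such cells leave the cell cycle, and genes of DNA replication, which E2F factors and pocket proteins control, and genes of mitosis, which the DREAM and MMB complexes control through CHR and CCAAT elements, fall together. Less growth factor signalling also lets FoxO factors enter the nucleus, where they drive genes of fasting and quiescence. Id proteins hold neuronal differentiation factors inactive, and Nrf2 drives enzymes against oxidants and electrophiles.

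RNA was hybridised to Agilent 2-colour mouse arrays, on which each array held the RNA of 2 samples, in Cy5 and in Cy3. Each group had 2 samples in each dye. The description of TO-p replicate 2 and of TO-d replicate 4 carries the number of another sample of the group with "b" added, which may mark the same culture or RNA. Each WT and OT group also held 1 such sample. The "b" pairs of OT-p and OT-d were the closest pairs of their groups (root mean square difference of 0.134 and 0.146 log2 units). Those of TO-p and TO-d ranked 2 from the closest, at 0.236 and 0.17, and the closer TO-d pair (0.117) shared an array. In WT-p the "b" pair also ranked 2 (0.253), and in WT-d it was the furthest apart (0.375). Between 54.26 and 63.59% of the spots were well above background in the 8 TO samples, and no spot was saturated. The 12 markers of sympathetic neuroblasts that were fixed for these cells, Th and Dbh of catecholamine synthesis and the factors Phox2a and Hand2 among them, were well above background in all 8 samples (12 of 12). Levels are given as normalised log2 intensities, on which a difference of 1 is a 2-fold change. The level of a gene's probe is compared between samples only, not with the probes of other genes. In these bulk samples fewer cells of a kind and less RNA per cell cannot be told apart.

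The medium changed the TO line broadly. Of 16241 genes tested with limma and Benjamini-Hochberg adjustment, 4302 were higher in TO-d than in TO-p at an adjusted p under 0.05 (26.5%) and 4205 were lower (25.9%). "Rose", "fell" and "called" below refer to this threshold and to TO-d against TO-p. A called difference over 2-fold was met by 438 genes upward (2.7%) and by 714 downward (4.4%), so that the large changes were more often falls. The 4 samples of TO-d all lay above the 4 of TO-p in 3887 genes and all below them in 3734. Among the 40 gene lists compared, the shares called ran from all members lower to most members higher, and each list is read against the 26.5% and 25.9% of all genes.

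**Figure D1:**
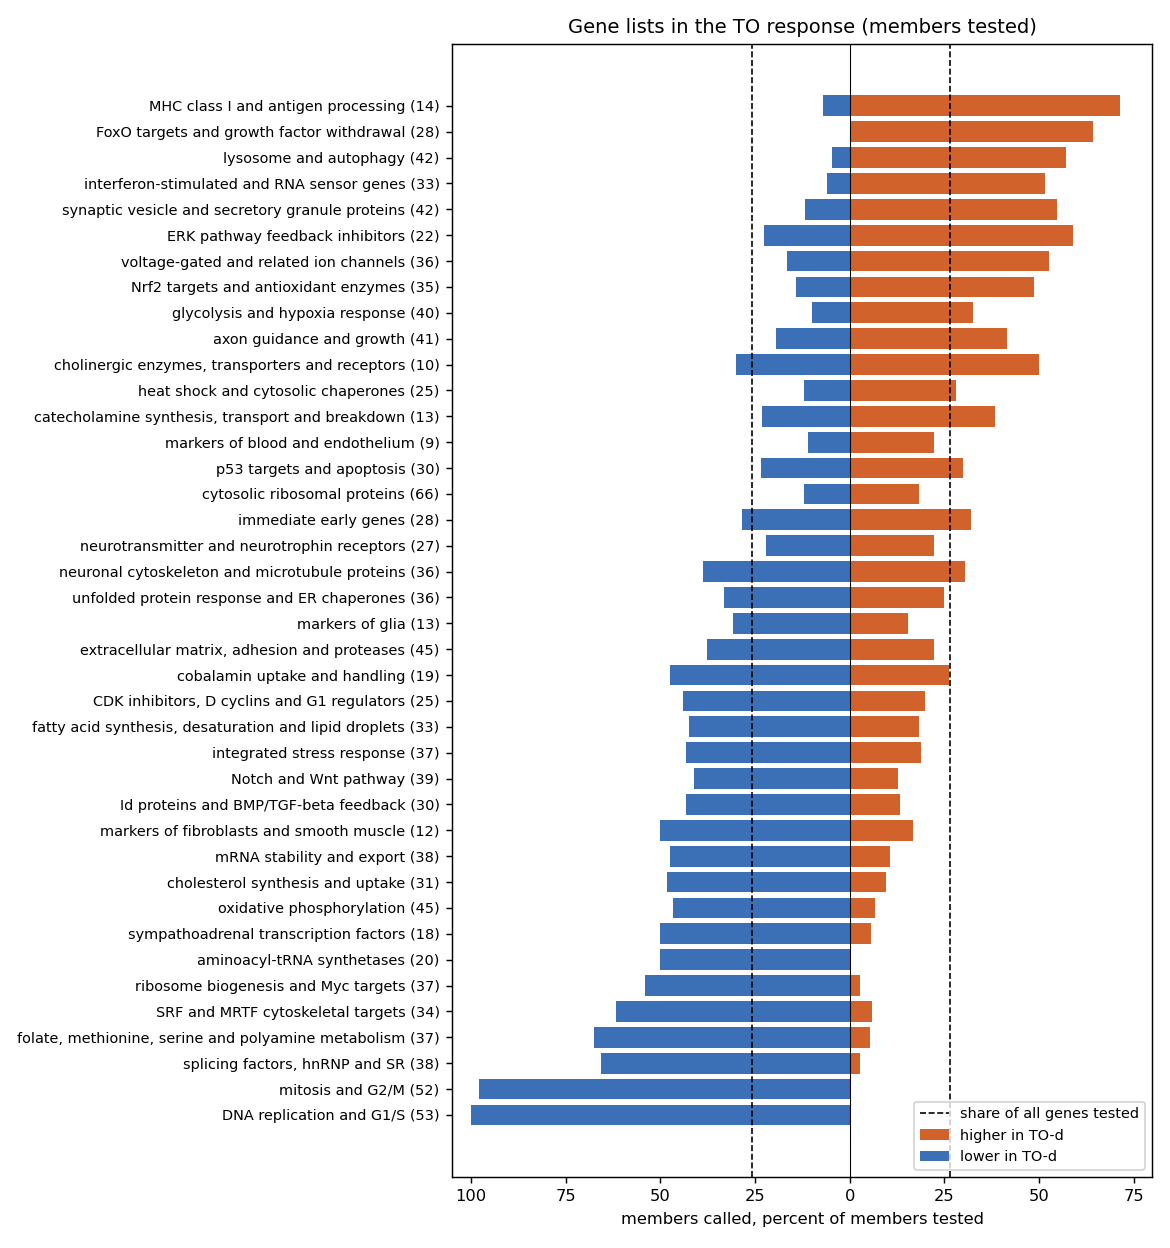
Horizontal bars give, for each of 40 gene lists, the percent of tested members called higher (right) and lower (left) in TO-d than in TO-p, with the number tested in brackets and dashed lines at the shares of all genes, 26.5% and 25.9%. Replication (53 of 53) and mitosis (51 of 52) genes fell, and MHC class I (10 of 14) and FoxO (18 of 28) genes have the largest shares that rose.

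Genes of mitosis fell most. Of 52 tested genes of mitosis and G2/M, 51 fell, all of them over 2-fold, none rose, and the median log2 difference was -3.72, against 9e-04 over all genes. Mki67, which encodes the proliferation antigen Ki-67, lay at 13.14, 12.81, 13.09 and 13.45 in the TO-p samples and at 7.68, 7.42, 7.91 and 7.45 in the TO-d samples. The groups were far apart, and Mki67 fell 47.8-fold (log2 difference -5.58 ± 0.169 SE, adjusted p = 1.15e-17). Ccnb1, the cyclin that drives entry into mitosis, lay at 12.19, 12.31, 12.14 and 12.52 in the TO-p samples and at 6.58, 7.24, 7.39 and 7.13 in the TO-d samples, a fall of 38.5-fold (-5.27 ± 0.147, adjusted p = 3.01e-18). TO-d replicate 1 was the lowest of its group in Ccnb1 and the fall was seen in every sample. Birc5 (survivin, a chromosomal passenger protein) fell 31.5-fold and Cenpe, a kinetochore motor, 29-fold (-4.86 ± 0.0883, adjusted p = 1.86e-21). Racgap1, which acts in cytokinesis, was the member that did not pass, with a log2 difference of 0.16 ± 0.112 (adjusted p = 0.245). It passed when the 8 TO samples were fitted alone (0.22, adjusted p = 0.0155). It is named after its values were seen.

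The 15 largest falls were taken among called genes with a symbol whose groups did not overlap. Beside Mki67, Ccnb1, Birc5 and Cenpe, they included Shcbp1 (44.6-fold), which acts at the midbody, Sgo1 (41.3-fold), the protector of sister chromatid cohesion, and Ncapg of condensin (28.4-fold). Also among them were Top2a, the topoisomerase that untangles chromosomes (28.2-fold), Kif20a, a cytokinesis motor (27.7-fold), and Ube2c, the ubiquitin carrier of the anaphase promoting complex (26.5-fold). Top2a lay at 12.31, 12.3, 11.86 and 12.19 in the TO-p samples and at 7.36, 7.25, 7.56 and 7.5 in the TO-d samples (adjusted p = 1.91e-17). Ube2c lay at 12.61, 12.54, 12.75 and 12.95 in the TO-p samples and at 8.44, 7.52, 7.82 and 7.88 in the TO-d samples (adjusted p = 5.36e-14), with TO-d replicate 1 the highest of its group. Sapcd2, which acts in spindle orientation, fell 36.4-fold, and Nusap1, a spindle protein, fell 26.7-fold, with 3 of 4 TO-d samples well above background. Exo1, an exonuclease of DNA repair, lay highest in TO-p replicate 4, at 13.38, against 12.29, 12.44 and 12.61 in the other TO-p samples, and fell 27-fold. With Agilent's processed signal in place of the normexp-corrected one, 15 of the 198 single-gene differences between TO-d and TO-p moved by over 1.5 times, all to larger sizes. Among these falls the log2 differences became -6.24 for Mki67, -6.32 for Ccnb1 and Shcbp1, -6.12 for Sgo1, -5.52 for Top2a and -6.9 for Nusap1, the largest of these.

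**Figure D2:**
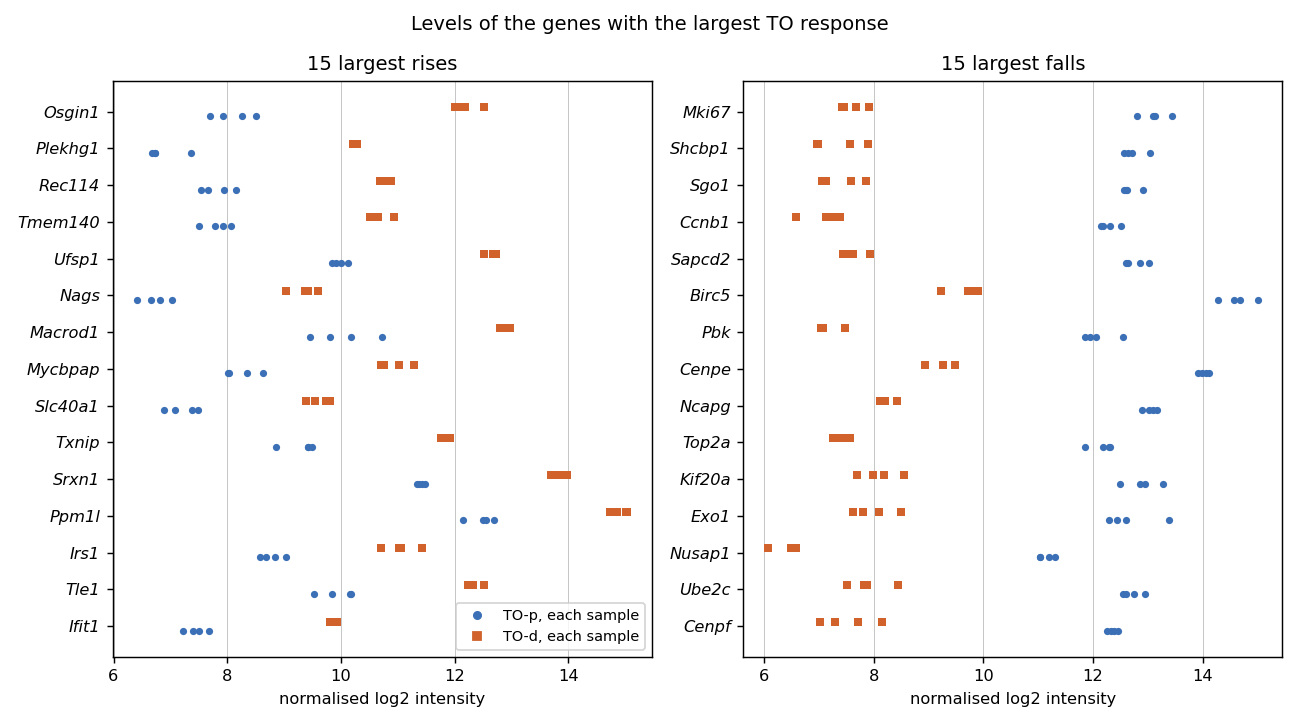
Points give the normalised log2 intensity of each of the 4 TO-p (circles) and 4 TO-d (squares) samples for the 15 largest rises (left) and 15 largest falls (right). The 30 genes were chosen among called genes with a symbol whose groups do not overlap. Mki67 lies between 12.81 and 13.45 in TO-p and between 7.42 and 7.91 in TO-d.

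For some dividing-cell genes TO-d was not well above background in any sample, and only a lower bound can be given. It sets the mean of TO-p against that of TO-d. Each TO-d value was taken as measured or as the lowest signal above background of its sample, whichever was higher. Measured in all TO-p samples and in no TO-d sample were 50 genes, 49 of them called, with Cxcl10 and Notch1 as well as dividing-cell genes among them. Hmmr, a spindle and hyaluronan receptor protein, was at least 6.24-fold lower, Ticrr, which loads replication origins, at least 5-fold, Kif11, the motor that separates spindle poles, at least 4.98-fold, and Depdc1a at least 4.8-fold. The reverse, measured in all TO-d samples and in no TO-p sample, held for 41 genes, 37 of them called. Both sets were chosen by which group was above background. A call in that direction is therefore favoured beforehand, and the numbers called are not read as a result. These bounds were small: Sag (arrestin) was at least 2.31-fold higher and Il20ra, a cytokine receptor chain, at least 2.04-fold.

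The promoters of the mitosis genes were searched for the letters of the cell cycle elements. Promoters are the 250 bases before and 50 bases after the gene start in the RefSeq annotation of GRCm38.p6, and both strands were searched. The CHR letters TTTGAA stand in 29 of the 44 mitosis genes with a promoter sequence (65.9%) and in 17.9% of all 32851 promoters, and the CCAAT letters in 29 of 44 against 37.4%. Both stand in the same promoter in 24 of the 44 mitosis genes (54.5%) and in 6.95% of all promoters. A listed gene counts if any of its promoters matches, while the share of all counts each promoter singly. The shares are therefore not quite alike, here and for the elements searched below. A match describes the letters and shows no binding. Printed below are the promoters of 3 of the largest falls that carry both, in the direction of the gene, with every CHR and CCAAT match in capitals. They are Mki67 at chr7:135716330-135716629 on the minus strand, Top2a at chr11:99024140-99024439 on the minus strand and Ube2c at chr2:164769679-164769978 on the plus strand. Positions count from the gene start: Mki67 has CHR matches that begin at -116 and -98 with CCAAT at -188, -166 and -141, and Top2a has CHR matches at -179 and -23 with 6 CCAAT matches. Ube2c has a CHR match at -29, on the reverse strand, with 6 CCAAT matches, a pair of which overlap on opposite strands.
Mki67: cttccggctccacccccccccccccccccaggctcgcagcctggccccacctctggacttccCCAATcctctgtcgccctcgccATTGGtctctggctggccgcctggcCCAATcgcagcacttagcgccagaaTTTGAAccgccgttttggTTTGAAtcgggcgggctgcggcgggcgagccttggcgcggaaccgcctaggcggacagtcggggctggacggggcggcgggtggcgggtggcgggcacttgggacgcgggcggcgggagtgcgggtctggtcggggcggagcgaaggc
Top2a: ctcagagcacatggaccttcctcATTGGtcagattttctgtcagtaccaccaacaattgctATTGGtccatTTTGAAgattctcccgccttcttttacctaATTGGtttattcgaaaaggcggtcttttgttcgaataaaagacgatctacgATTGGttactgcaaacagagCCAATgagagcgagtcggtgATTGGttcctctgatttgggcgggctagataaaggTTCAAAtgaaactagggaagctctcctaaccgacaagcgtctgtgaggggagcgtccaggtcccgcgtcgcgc
Ube2c: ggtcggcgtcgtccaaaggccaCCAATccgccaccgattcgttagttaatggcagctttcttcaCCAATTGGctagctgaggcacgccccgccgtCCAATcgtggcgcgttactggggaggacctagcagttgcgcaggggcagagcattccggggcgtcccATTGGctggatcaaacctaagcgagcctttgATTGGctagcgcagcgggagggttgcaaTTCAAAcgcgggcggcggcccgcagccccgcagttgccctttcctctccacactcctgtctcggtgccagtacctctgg

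Every tested gene of DNA replication and the G1/S step fell, 53 of 53, with 43 over 2-fold and a median log2 difference of -2.01. Tk1, the thymidine kinase of S phase, lay at 12.36, 12.02, 12 and 12.68 in the TO-p samples and at 8.86, 7.87, 7.97 and 8.21 in the TO-d samples and fell 14.7-fold (-3.87 ± 0.179, adjusted p = 2.45e-14). Pole, the catalytic subunit of DNA polymerase epsilon, fell 14.2-fold (log2 difference -3.83, and -4.58 with the processed signal). Mcm3, a subunit of the replicative helicase, lay at 14.38, 14.04, 14.18 and 14.75 in the TO-p samples and at 10.73, 10.22, 10.39 and 10.29 in the TO-d samples, a fall of 14.3-fold (-3.84 ± 0.165, adjusted p = 6.83e-15). In Mcm3 as in Tk1, TO-p replicate 4 was the highest sample and TO-d replicate 1 the highest of its group, and the groups stayed over 3 log2 units apart in each. An E2F element, spelled TTTCCCGC, TTTCGCGC, TTTGCCGC or TTTGGCGC, stands in 17 of the 43 replication genes with a promoter sequence (39.5%) and in 2.26% of all promoters. The promoter of Mcm3 (chr1:20820263-20820562 on the minus strand) is shown with its E2F matches in capitals, which begin 20 and 39 bases past the gene start on opposite strands.
Mcm3: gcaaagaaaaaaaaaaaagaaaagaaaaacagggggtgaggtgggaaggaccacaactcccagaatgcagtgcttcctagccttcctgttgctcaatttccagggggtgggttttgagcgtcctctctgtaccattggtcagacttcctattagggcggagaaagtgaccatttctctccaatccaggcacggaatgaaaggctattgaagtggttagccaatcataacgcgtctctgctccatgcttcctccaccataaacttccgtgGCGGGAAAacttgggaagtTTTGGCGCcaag

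The regulators of the G1 phase were divided. Of 25 tested CDK inhibitors, D cyclins and their relatives 11 fell, 5 rose and 9 did not pass (median -0.16). None of the tested Cdkn genes rose. Cdkn1a, which arrests cells after p53 activation, fell 1.95-fold (-0.96 ± 0.128, adjusted p = 1.04e-06), Cdkn2c fell by 0.74 on the log2 scale, and Cdkn1b was at -0.16 ± 0.114 (adjusted p = 0.271, and 0.0409 with the 8 TO samples fitted alone). Cdkn1a lay at 10.84, 10.65, 10.51 and 11.08 in the TO-p samples and at 9.87, 9.87, 9.68 and 9.88 in the TO-d samples, with no overlap between the groups. Cyclin D1, Ccnd1, fell by 0.71 and its partner Cdk4 fell by 0.71 on the log2 scale. Skp2, the ubiquitin ligase subunit that removes the product of Cdkn1b, fell 2.52-fold, the pocket protein Rbl1 2-fold, and its relative Rbl2, the form found in resting cells, rose by 0.29 ± 0.0596 (adjusted p = 0.000262). The antiproliferative gene Btg2 rose 1.81-fold (0.86 ± 0.187, adjusted p = 0.000456) and Btg1 1.42-fold. Gadd45b, a stress sensor, fell 3-fold (-1.58 ± 0.104, adjusted p = 1.25e-11).

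Id genes fell strongly. Id1, an inhibitor of neuronal bHLH factors and a direct target of BMP signalling, lay at 12.85, 12.87, 13.02 and 13.1 in the TO-p samples and at 9.45, 9.58, 9.56 and 9.51 in the TO-d samples. All 4 TO-d samples stood over 3 log2 units below the TO-p samples, a fall of 10.9-fold (-3.45 ± 0.101, adjusted p = 6.68e-18). Id2 fell 4.61-fold (-2.21 ± 0.192, adjusted p = 1.59e-09) and Id3 3.94-fold (-1.98 ± 0.286, adjusted p = 3.51e-06). Id4 rose 1.43-fold with groups that overlapped (0.52 ± 0.189, adjusted p = 0.0252), a call that was lost without TO-p replicate 1 or 2 or TO-d replicate 1 (adjusted p = 0.101, 0.0674 and 0.0971) and with the authors' processed values (0.0517). Bambi, a decoy receptor that BMP signalling induces, fell 3.3-fold. Of the 30 tested Id, BMP and TGF-beta feedback genes 13 fell, 4 rose and 13 did not pass. Those that rose included Ski, a repressor of Smad proteins (1.47-fold), and Smad1 (1.27-fold).

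Of the immediate early genes, which serum induces within minutes, 9 of 28 rose, 8 fell and 11 did not pass. These shares are near the 26.5% and 25.9% of all genes. Jun, a subunit of AP-1, lay at 9.67, 9.78, 9.93 and 10.06 in the TO-p samples and at 11.87, 11.82, 11.91 and 11.76 in the TO-d samples and rose 4.03-fold (2.01 ± 0.127, adjusted p = 6.97e-12). Jund rose 2.7-fold and Fosl2 1.56-fold. Fos, their partner, fell 1.74-fold (-0.8 ± 0.0664, adjusted p = 7.1e-10), as did Nr4a1 (1.95-fold), Klf4 (1.76-fold) and Mycn (1.57-fold). Egr1 was at -0.34 ± 0.18 and did not pass (adjusted p = 0.122, and 0.0185 with the 8 TO samples fitted alone). Among the feedback inhibitors of the ERK pathway 13 of 22 rose, 5 fell and 4 did not pass (median 0.33). Spry1, which blocks receptor tyrosine kinase signalling, lay at 9.43, 9.45, 9.67 and 9.41 in the TO-p samples and at 10.91, 10.95, 10.87 and 10.74 in the TO-d samples and rose 2.56-fold (adjusted p = 1.1e-12). The phosphatase Dusp8 rose 2.15-fold and Spred1 2.1-fold. Among the fallen members were the ETS factors Etv4 (1.78-fold), Etv1 (3 TO-p samples, since a spot of TO-p replicate 1 was left out, 1.5-fold) and Etv5 (1.39-fold), which ERK induces.

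Targets of FoxO and genes of growth factor withdrawal rose, 18 of 28, with none lower, 10 not passing and a median log2 difference of 0.6. Txnip, which binds thioredoxin and limits glucose uptake, lay at 9.5, 9.43, 9.42 and 8.86 in the TO-p samples and at 11.77, 11.91, 11.92 and 11.87 in the TO-d samples. It rose 5.43-fold (2.44 ± 0.2, adjusted p = 5.64e-10). Irs1, the adaptor of insulin signalling, lay at 9.04, 8.69, 8.84 and 8.58 in the TO-p samples and at 11.42, 11.03, 10.7 and 11.06 in the TO-d samples and rose 5.19-fold (2.38 ± 0.102, adjusted p = 6.83e-15). Its TO-d level was highest in replicate 1 and lowest in replicate 3, and all were above every TO-p sample. Pdk1, which shuts pyruvate out of the citric acid cycle, rose 3.17-fold and Ypel3, a gene of growth arrest, 2.91-fold (1.54 ± 0.147, adjusted p = 7.45e-09).

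The largest fitted rise was that of Osgin1, an Nrf2 target that is named for growth inhibition under oxidative stress. It lay at 7.69, 8.5, 8.26 and 7.93 in the TO-p samples and at 12.01, 12.18, 12.52 and 12.07 in the TO-d samples, and every TO-d sample was over 3 log2 units above every TO-p sample. The rise was 15.2-fold (3.92 ± 0.132, adjusted p = 8.29e-17). With the processed signal it was 4.35 on the log2 scale and that of Plekhg1 was larger, at 4.52. Of 35 tested Nrf2 targets and antioxidant enzymes 17 rose, 5 fell and 13 did not pass (median 0.2), and 7 rose over 2-fold. Srxn1, which repairs oxidised peroxiredoxins, lay at 11.38, 11.34, 11.48 and 11.43 in the TO-p samples and at 13.69, 13.83, 13.98 and 13.84 in the TO-d samples and rose 5.36-fold (adjusted p = 3.82e-13). Ephx1, an epoxide hydrolase, rose 3.26-fold and Gstm1, a glutathione transferase, 2.98-fold (1.57 ± 0.17, adjusted p = 5.03e-08). Other members went down: Gpx1, a glutathione peroxidase, fell 1.85-fold, Hmox1, the heme oxygenase that Nrf2 also drives, 1.45-fold (-0.53 ± 0.0864, adjusted p = 1.51e-05), and Taldo1, of the pentose phosphate pathway, 1.32-fold.

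Other genes among the 15 largest rises had various roles. Plekhg1, a guanine nucleotide exchange factor, lay at 6.68, 6.73, 7.37 and 6.73 in the TO-p samples and at 10.28, 10.22, 10.28 and 10.22 in the TO-d samples, a rise of 9.95-fold (3.31 ± 0.156, adjusted p = 3.58e-14). Rec114, known from meiotic recombination, rose 7.64-fold, Tmem140 7.25-fold and Ufsp1, a protease of the UFM1 pathway, 5.99-fold. Nags, which makes the activator of the urea cycle, rose 5.97-fold, with 3 of 4 TO-p samples well above background (log2 difference 2.58, and 3.92 with the processed signal). Slc40a1, ferroportin, the iron exporter, lay at 7.08, 6.89, 7.48 and 7.38 in the TO-p samples and at 9.8, 9.74, 9.55 and 9.39 in the TO-d samples and rose 5.51-fold (2.46 ± 0.099, adjusted p = 2e-15, and 3.34 with the processed signal). The transcriptional corepressor Tle1 rose 5.22-fold, the phosphatase Ppm1l 5.25-fold and Macrod1, which removes ADP-ribose from proteins, 5.91-fold. Macrod1 varied among the TO-p samples, from 9.45 in replicate 4 to 10.72 in replicate 2, and was between 12.8 and 12.98 in TO-d.

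Interferon-stimulated genes and RNA sensors also rose, 17 of 33, with 2 lower and 14 not passing, and 8 rose over 2-fold (median 0.3). Ifit1, which binds viral RNA, lay at 7.39, 7.5, 7.68 and 7.22 in the TO-p samples and at 9.94, 9.91, 9.83 and 9.8 in the TO-d samples. The rise was 5.17-fold (2.37 ± 0.245, adjusted p = 2.41e-08, and 3.05 with the processed signal). Rsad2 (viperin) lay at 6.98, 7.81, 7.86 and 7.25 in the TO-p samples and at 10.02, 9.86, 9.76 and 9.79 in the TO-d samples, a rise of 4.7-fold (2.23 ± 0.22, adjusted p = 1.21e-08, and 3.04 between the 1 TO-d and 1 TO-p sample of slide 1). The TO-d samples were close to each other in both genes, and TO-p replicates 2 and 3 were the higher of their group. Rtp4, a chaperone of G protein coupled receptors that interferon induces, rose 3.98-fold (1.99 ± 0.17, adjusted p = 1.15e-09) and Mx2, an antiviral GTPase, 3.14-fold. The 2 lower members were Adar, an RNA editing enzyme (1.23-fold, not passing without TO-d replicate 1, adjusted p = 0.0688), and the chemokine Cxcl10, well above background in 4 TO-p samples and no TO-d sample. Genes of MHC class I and antigen processing rose in 10 of 14 cases, with 1 lower and 3 not passing. Tapbp, which loads peptides onto MHC class I, rose 2.77-fold (1.47 ± 0.144, adjusted p = 1.14e-08) and H2-D1 1.78-fold, while the immunoproteasome subunit Psmb9 fell 1.69-fold. MHC class I genes are near-identical copies, so that probes may read more than 1 of them.

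The letters of the interferon response element (ISRE), TTTCNNTTTC, stand in 14 of the 27 listed genes with a promoter sequence (51.9%) and in 3.44% of all promoters. Among those also tested, it stands in 7 of the 12 that rose, in 1 of the 2 that fell, and in 5 of the 10 that did not pass. The promoters of the 2 largest rises of the list are shown with the element in capitals, Ifit1 at chr19:34640639-34640938 on the plus strand, with matches that begin at -104 and -85, and Rsad2 at chr12:26456403-26456702 on the minus strand, with a match at -120.
Ifit1: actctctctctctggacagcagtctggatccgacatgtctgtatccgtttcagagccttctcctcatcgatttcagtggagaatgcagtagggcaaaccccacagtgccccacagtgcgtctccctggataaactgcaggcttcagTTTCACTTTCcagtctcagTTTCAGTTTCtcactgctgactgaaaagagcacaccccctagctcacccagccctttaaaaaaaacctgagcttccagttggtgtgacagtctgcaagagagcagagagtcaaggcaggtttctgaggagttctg
Rsad2: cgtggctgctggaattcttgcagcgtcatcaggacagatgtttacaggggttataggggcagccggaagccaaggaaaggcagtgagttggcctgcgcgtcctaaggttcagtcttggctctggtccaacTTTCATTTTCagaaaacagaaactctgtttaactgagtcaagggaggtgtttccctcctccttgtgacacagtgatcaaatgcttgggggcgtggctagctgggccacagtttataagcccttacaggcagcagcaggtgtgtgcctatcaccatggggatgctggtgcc

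Neuronal genes did not move as a block. Synaptic vesicle and secretory granule genes rose in 23 of 42 cases, fell in 5 and did not pass in 14 (median 0.24). Syt7, a calcium sensor of exocytosis, lay at 6.44, 6.68, 6.92 and 6.79 in the TO-p samples and at 7.96, 8.2, 8.22 and 8.17 in the TO-d samples and rose 2.61-fold (1.38 ± 0.0845, adjusted p = 3.85e-12, and 2.82 with the processed signal). Syt11 rose 2.34-fold. Chgb, a granule protein, rose 2.45-fold with groups that overlapped (adjusted p = 0.00339, and 0.0696 without the samples numbered "b"). Its log2 difference was 1.29 over all samples and 0.31 within slide 1, which held 1 TO-d and 1 TO-p sample. Its TO-p level was 18.15 and 17.28 in the Cy5 samples and 16.03 and 16.07 in the Cy3 samples, so that the dyes differed by over 1 log2 unit. The 5 that fell included Unc13a, which primes vesicles for release, at 10.93, 10.73, 11.16 and 11.09 in the TO-p samples and at 9.36, 8.79, 8.69 and 9.02 in the TO-d samples. It fell 4.03-fold (-2.01 ± 0.213, adjusted p = 3.71e-08). Complexins 2 and 1, which clamp the fusion machinery, fell 2.72-fold (Cplx2) and 1.98-fold (Cplx1), and Rab3c 2.09-fold.

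Ion channel genes rose in 19 of 36 cases, fell in 6 and did not pass in 11 (median 0.25). The potassium channel Kcnc4 rose 2.46-fold (1.3 ± 0.0844, adjusted p = 1.08e-11), its relative Kcnc1 1.93-fold and Kcnma1, the large conductance calcium-activated channel, 1.7-fold (0.77 on the log2 scale, and 1.61 with the processed signal). Kcnip3, a calcium-binding subunit of potassium channels, fell 1.8-fold. The neuronal cytoskeleton was divided between 11 genes that rose, 14 that fell and 11 that did not pass (36 tested, median 0.03). Mapt, the tau protein of axons, lay at 12.57, 12.81, 12.87 and 12.13 in the TO-p samples and at 14.32, 14.21, 14 and 14.28 in the TO-d samples and rose 2.89-fold (1.53 ± 0.186, adjusted p = 2.99e-07). Map1a rose 1.87-fold and the axonal motor Kif5a 1.62-fold. Nefh, the heavy neurofilament subunit, lay at 13.16, 13.08, 12.85 and 13.16 in the TO-p samples and at 11.34, 11.2, 11.26 and 11.37 in the TO-d samples and fell 3.28-fold (-1.72 ± 0.0874, adjusted p = 1.51e-13). Stmn1, a microtubule destabiliser of dividing and immature cells, fell 2.7-fold, and the beta tubulins Tubb4a and Tubb2b, which share much of their sequence with other tubulins, fell 2.52-fold and 2.5-fold. Receptors for transmitters and neurotrophins, 27 tested, rose in 6 cases, fell in 6 and did not pass in 15, shares near those of all genes. The angiotensin receptor Agtr1a rose 3.56-fold and the neurotrophin receptor Ngfr 1.78-fold (0.83 ± 0.0825, adjusted p = 1.29e-08), while the serotonin channel Htr3a fell 3.02-fold.

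Transmitter genes showed a strong rise in few members. Ache, acetylcholinesterase, an old marker of differentiation in this line, lay at 8.43, 8.66, 8.84 and 8.46 in the TO-p samples and at 11.05, 11.14, 11.04 and 10.96 in the TO-d samples. It rose 4.93-fold (2.3 ± 0.178, adjusted p = 2.09e-10). Nicotinic receptor subunits moved both ways: Chrnb2 rose 2.19-fold, Chrna5 1.69-fold and Chrna3 by 0.59 on the log2 scale, and Chrna7 fell 1.88-fold. In all 5 of 10 cholinergic genes rose, 3 fell and 2 did not pass. Of 13 catecholamine genes 5 rose, 3 fell and 5 did not pass. Slc18a1, the vesicular monoamine transporter of endocrine cells, lay at 8.83, 8.52, 8.77 and 8.17 in the TO-p samples and at 10.87, 10.84, 10.49 and 10.76 in the TO-d samples and rose 4.52-fold (2.18 ± 0.136, adjusted p = 5.19e-12). Qdpr, which regenerates the cofactor of tyrosine hydroxylase, rose 2.3-fold. Th, the rate-limiting enzyme, lay at 12, 12.03, 11.85 and 11.88 in the TO-p samples and at 12.25, 12.37, 12.19 and 12.34 in the TO-d samples and rose by 0.28 ± 0.0822 (adjusted p = 0.00659, 0.0717 without TO-d replicate 4, and 0.0915 without the samples numbered "b"). Dbh, which makes noradrenaline, was at -0.16 ± 0.11 (adjusted p = 0.247). Maoa, which breaks monoamines down, fell 1.85-fold (-0.89 ± 0.0674, adjusted p = 1.51e-10). Of the factors that set sympathetic identity 9 of 18 fell, 1 rose and 8 did not pass. Insm1 fell 2.09-fold, Isl1 1.84-fold, and Gata2 1.7-fold, and Phox2a fell by 0.51 on the log2 scale. Gata3 rose 1.42-fold (0.5 ± 0.112, adjusted p = 0.000588).

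Splicing factors fell more often than the 25.9% of all genes. Of 38 splicing factors of the hnRNP and SR families 25 fell, 8 of them over 2-fold, 1 rose and 12 did not pass (median -0.46). Rbm3, a cold-shock RNA-binding protein, lay at 13.23, 13.07, 13.29 and 13.81 in the TO-p samples and at 10.61, 10.85, 11.12 and 10.56 in the TO-d samples and fell 5.78-fold (-2.53 ± 0.157, adjusted p = 4.89e-12). Ptbp1, the repressor of neuronal exons, lay at 12.75, 12.53, 12.59 and 12.7 in the TO-p samples and at 11.37, 11.41, 11.53 and 11.33 in the TO-d samples, a fall of 2.31-fold (adjusted p = 1.22e-11). Hnrnpl fell 2.29-fold, and Srsf5 was the member that rose (1.44-fold). Genes of mRNA stability and export fell in 18 of 38 cases, rose in 4 and did not pass in 16. The export factors Ddx39a and Alyref fell 4.53-fold and 2.23-fold, the importin Kpna2 2.82-fold and Lin28a, which blocks let-7 maturation, 2.24-fold. Elavl1 (HuR), which stabilises mRNAs, was at -0.18 ± 0.0847 and did not pass (adjusted p = 0.0879), although it did without TO-p replicate 2 (0.0456), without the samples numbered "b" (0.0193) and with the 8 TO samples fitted alone (0.0255). Ribosome biogenesis and Myc targets fell in 20 of 37 cases, rose in 1 and did not pass in 16, all falls being under 2-fold. Ddx21 fell 1.87-fold and Dkc1, the pseudouridine synthase, 1.78-fold (-0.83 ± 0.109, adjusted p = 8.8e-07). The cytosolic ribosomal proteins stayed below the background in both directions, with 12 of 66 higher and 8 lower, and many of them have near-identical pseudogenes.

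Stress genes were mixed. Genes of the integrated stress response fell in 16 of 37 cases, rose in 7 and did not pass in 14 (median -0.24), and 10 of 20 aminoacyl-tRNA synthetases fell, with none higher. Nupr1, a stress-induced chromatin protein, lay at 14.32, 14.22, 14.44 and 14.25 in the TO-p samples and at 12.81, 12.88, 12.95 and 12.94 in the TO-d samples and fell 2.56-fold (-1.35 ± 0.0781, adjusted p = 1.32e-12). The synthetase Aars fell 1.79-fold and Cars 1.66-fold. Atf5, a factor of the same response, rose 1.6-fold (0.68 ± 0.113, adjusted p = 3.23e-05), Sqstm1 rose 1.61-fold, and Ddit3 (CHOP) was at -0.22 ± 0.12 (adjusted p = 0.139). The unfolded protein response had 9 of 36 genes higher and 12 lower, and with loess alone 6 lower. Hspa5 (BiP), the main chaperone of the endoplasmic reticulum, lay at 14.81, 14.72, 14.92 and 14.67 in the TO-p samples and at 15.33, 15.38, 15.05 and 15.38 in the TO-d samples and rose 1.47-fold (adjusted p = 2.69e-06). Syvn1, a ligase of protein disposal, rose 1.96-fold, while Selenok fell 2.16-fold and Sdf2l1 2.15-fold. Cytosolic chaperones rose in 7 of 25 cases, a share near that of all genes, fell in 3 and did not pass in 15. Dnajb4 lay at 9.4, 9.52, 9.8 and 9.5 in the TO-p samples and at 11.51, 11.41, 11.18 and 11.38 in the TO-d samples and rose 3.6-fold (1.85 ± 0.0835, adjusted p = 1.64e-14), Dnajb1 rose 1.73-fold and Hsph1 1.6-fold. Sirt1, a deacetylase of the heat shock factor, fell 1.79-fold (-0.84 ± 0.0935, adjusted p = 8.36e-08), and Ppp2ca, a catalytic subunit of protein phosphatase 2A, rose 1.28-fold.

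Cobalamin serves 2 enzymes, methionine synthase in the cytosol and methylmalonyl-CoA mutase in mitochondria. Of 19 genes of cobalamin uptake and handling 9 fell, 5 rose and 5 did not pass (median -0.28), all under 2-fold. Tcn2, transcobalamin, lay at 8.9, 9.08, 9 and 8.91 in the TO-p samples and at 9.47, 9.6, 9.73 and 9.41 in the TO-d samples. The groups did not overlap and the rise was 1.38-fold (0.47 ± 0.0995, adjusted p = 0.000375). Whether the probe reads the mRNA of the construct as well as that of the cell's own gene is not given in the sources used here. Cd320, the receptor of transcobalamin, rose 1.28-fold (0.36 ± 0.103, adjusted p = 0.00504) and Lmbrd1, which lets cobalamin out of the lysosome, 1.5-fold. Mtr, methionine synthase, lay at 9.06, 9.19, 8.97 and 9.27 in the TO-p samples and at 8.18, 8.1, 8.2 and 8.54 in the TO-d samples and fell 1.84-fold (-0.88 ± 0.0916, adjusted p = 2.99e-08). Mmachc, which strips the upper ligand from cobalamin, fell 1.78-fold (-0.83 ± 0.114, adjusted p = 1.61e-06), and its regulators Zfp143 and Hcfc1 fell 1.87-fold and 1.42-fold. Mmut, the mitochondrial mutase, was at 0.04 ± 0.0631 and did not pass (adjusted p = 0.626). Genes of folate, methionine, serine and polyamine metabolism fell in 25 of 37 cases, 10 of them over 2-fold, with 2 higher and 10 not passing (median -0.42). Tyms, thymidylate synthase, which the replication programme also drives, fell 6.01-fold. Cth, which makes cysteine from cystathionine, lay at 12.18, 12.24, 12.36 and 12.31 in the TO-p samples and at 10.04, 10, 9.94 and 10 in the TO-d samples and fell 4.72-fold (-2.24 ± 0.0922, adjusted p = 3.06e-15). Psph, the last enzyme of serine synthesis, fell 2.9-fold and Gldc of the glycine cleavage system 2.98-fold. The 2 that rose were Mat2a, which makes S-adenosylmethionine (1.58-fold), and Gnmt, which spends it (1.34-fold).

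Lysosome and autophagy genes rose in 24 of 42 cases, fell in 2 and did not pass in 16 (median 0.36). Gabarapl1, an autophagosome protein, lay at 15.56, 15.65, 15.49 and 14.94 in the TO-p samples and at 16.79, 16.75, 16.47 and 16.84 in the TO-d samples and rose 2.47-fold (1.31 ± 0.154, adjusted p = 1.9e-07). The lysosomal enzyme Glb1 rose 2.15-fold. Cholesterol genes fell in 15 of 31 cases, rose in 3 and did not pass in 13. Nsdhl fell 2.25-fold (-1.17 ± 0.0991, adjusted p = 1.01e-09) and Fdps 1.99-fold, while Abca1, which exports cholesterol, rose 1.71-fold. Genes of fatty acid metabolism fell in 14 of 33 cases and rose in 6. Cpt1a, the gate of fatty acid oxidation, lay at 10.06, 10.28, 10.22 and 10.1 in the TO-p samples and at 11.49, 11.5, 11.48 and 11.35 in the TO-d samples and rose 2.37-fold (1.24 ± 0.0746, adjusted p = 2.67e-12). The desaturase Fads2 fell 2.25-fold. Subunits of oxidative phosphorylation fell in 21 of 45 cases and rose in 3, all under 2-fold, and with loess alone 13 fell. Cox5a of complex IV fell 1.57-fold.

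In the glycolysis and hypoxia list 13 of 40 genes rose, 4 fell and 23 did not pass (median 0.21). TO-d replicate 3 stood below the other TO-d samples in several of them. P4ha2, a collagen hydroxylase that hypoxia induces, lay at 15.4, 15.07, 14.98 and 14.72 in the TO-p samples and at 16.27, 16.2, 15.57 and 16.46 in the TO-d samples and rose 2.18-fold (1.13 ± 0.163, adjusted p = 3.46e-06). Pdk1, which also stands in the FoxO list, lay at 8.78, 7.93, 8.37 and 7.76 in the TO-p samples and at 10.23, 9.98, 9.49 and 9.89 in the TO-d samples (adjusted p = 4.59e-07), again with TO-d replicate 3 the lowest of its group and all TO-d samples above TO-p. Pkm, pyruvate kinase, fell 1.3-fold (-0.38 ± 0.103, adjusted p = 0.00303). The number of members that rose was 8 when the samples numbered "b" were left out and 23 when the 8 TO samples were fitted alone.

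Cytoskeletal targets of SRF, the serum response factor, and its partner MRTF fell in 21 of 34 cases, rose in 2 and did not pass in 11 (median -0.32). Myl9, a regulatory light chain of myosin, lay at 10.4, 10.52, 10.83 and 10.84 in the TO-p samples and at 8.3, 8.28, 8.63 and 8.43 in the TO-d samples and fell 4.57-fold (-2.19 ± 0.089, adjusted p = 2.39e-15). Cnn2 (calponin) fell 2.86-fold, Lgals1 1.9-fold and the cytoplasmic actin Actg1 1.87-fold. The calcium-binding protein S100a6 rose 2.67-fold and Actn1 1.57-fold. Markers of other cell types were also measured. Many were too dim to test. Tested were 12 of 19 listed markers of fibroblasts and smooth muscle, 13 of 22 of glia and 9 of 20 of blood and endothelium. Of the 12 markers of fibroblasts and smooth muscle 6 fell, 2 rose and 4 did not pass. Of the 13 of glia 4 fell, 2 rose and 7 did not pass. Of the 9 of blood and endothelium 1 fell, 2 rose and 6 did not pass. Acta2, smooth muscle actin and an SRF target too, fell 1.77-fold (-0.82 ± 0.0719, adjusted p = 1.67e-09). Mbp, a myelin protein, rose 1.86-fold, while most members of each of these lists did not rise. Aif1, a microglial marker, rose 2.21-fold, with 2 of 4 TO-p samples well above background (log2 difference 1.14, and 2.65 with the processed signal). The part of other cells in these results was not tested.

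The response was then set against those of the WT and OT lines to the same media, which use other samples, although TO, WT and OT samples share some arrays. In WT 5831 genes rose (35.9%) and 5007 fell (30.8%), and in OT 5923 rose (36.5%) and 5049 fell (31.1%). The log2 differences of all genes had an SD of 0.621 in TO, 0.804 in WT and 0.839 in OT. Over 2-fold, 1179 genes rose and 1254 fell in WT, and 1533 rose and 1220 fell in OT, against 438 and 714 in TO. Across the 16241 genes the TO response had a Pearson r of 0.82 with the WT response and 0.785 with the OT response, over genes that are not independent replicates. In all 3 lines 2874 genes rose and 2706 fell. Called in TO and in neither other line were 646 genes, and 463 were called with opposite sign in TO and WT and 585 in TO and OT.

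Tested as a difference of responses, 2864 genes had a TO response above that of WT (17.6%) and 3083 below it (19%), and 2828 had one above that of OT (17.4%) and 3713 below it (22.9%). This split depended on the scaling between arrays: with loess alone it was 4432 above and 1071 below WT, and 3122 above and 2567 below OT, while the median difference between responses moved by 0.174 against WT and by 0.07 against OT. Above both other lines were 1371 genes and below both 1615. These comparisons share the TO samples.

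**Figure D3:**
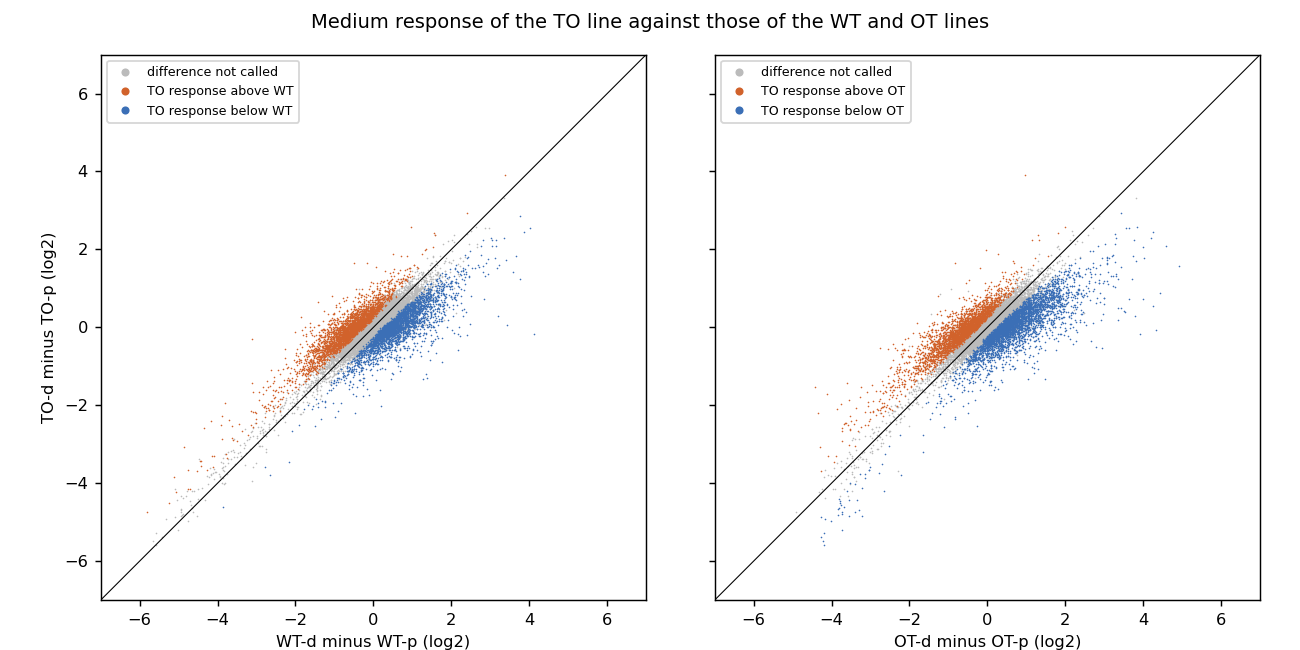
Each point is 1 of 16241 genes, with the log2 difference between media in the TO line on the vertical axis and that in the WT (left) or OT (right) line on the horizontal axis. The line marks equal responses and colours mark called differences. TO differences spread less (SD 0.621) than those of WT (0.804) and OT (0.839).

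Lists differed in how far the TO response stood from the others. Over all genes 17.6% were above and 19% below WT, and 17.4% were above and 22.9% below OT. The member counts below are to be read against these shares and were not repeated with loess alone. In mitosis genes the medians were -3.72 in TO, -3.91 in WT and -3.45 in OT. Of 52 members 21 fell more in TO than in OT and 2 stood above OT, while 5 stood above WT and none below it. In replication genes the medians were -2.01, -2.44 and -2.7. Of 53 members 25 had a TO response above that of WT and 1 below it, and 29 had one above that of OT and 2 below it. The aminoacyl-tRNA synthetases had medians of -0.29 in TO, -0.93 in WT and -0.73 in OT. Of 20 members 14 were above WT and 14 above OT, and 1 was below each. Ribosome biogenesis genes had -0.32, -0.86 and -0.98, with 24 and 27 of 37 above and 1 and 2 below. The folate and serine list had -0.42, -0.91 and -1.05, with 21 and 17 of 37 above and 5 and 4 below. For Nrf2 targets the medians were 0.2, 0.04 and -0.2, with 16 and 22 of 35 above and 2 and 5 below. In the opposite direction, FoxO targets had 0.6 in TO, 1.15 in WT and 1.29 in OT. Of 28 members 14 and 19 were below, and 1 was above WT and none above OT. The glycolysis and hypoxia list had 0.21, 0.73 and 1.07, with 12 and 25 of 40 below and 2 and 4 above.

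**Figure D4:**
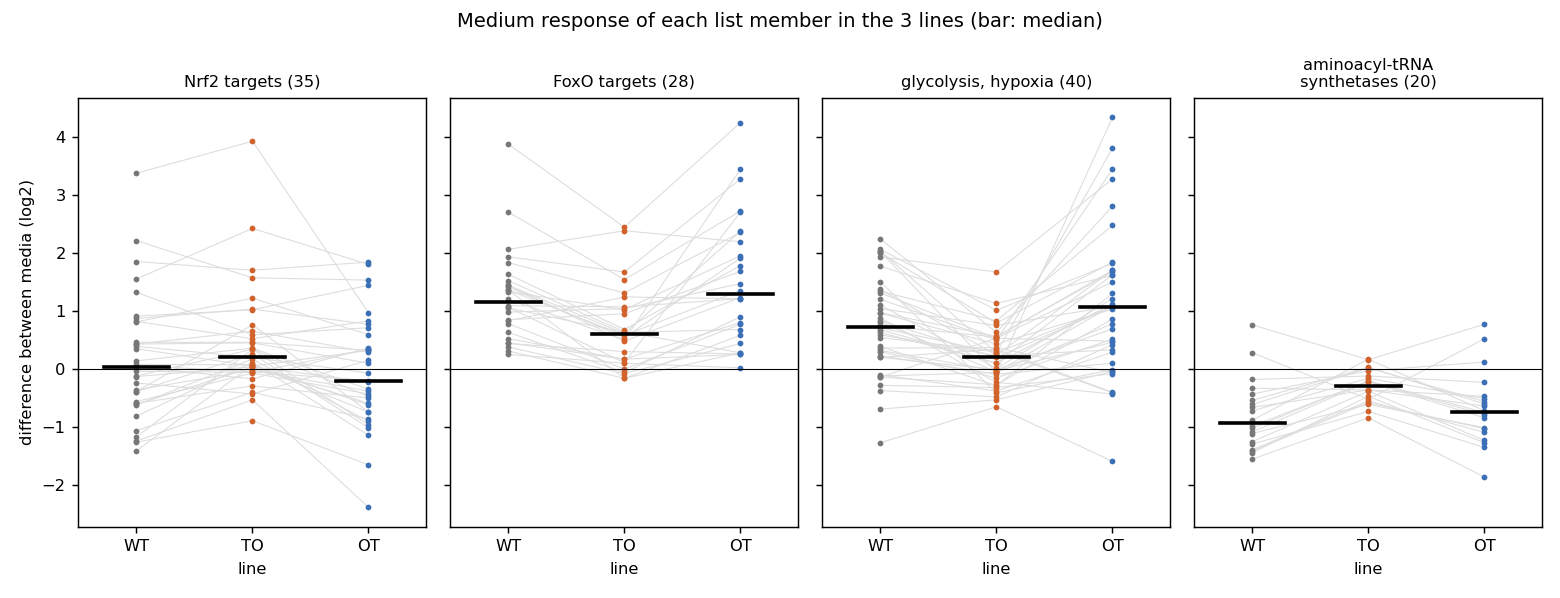
Points give the log2 difference between media of every tested member of 4 lists in the WT, TO and OT lines, thin lines join a gene and bars mark the medians. For FoxO targets the medians are 1.15, 0.6 and 1.29, and for the synthetases -0.93, -0.29 and -0.73.

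Named genes are given with their response in each line. Osgin1 rose by 3.92 in TO, 3.37 in WT and 0.97 in OT, a difference of 2.95 ± 0.191 from OT (adjusted p = 4.26e-10) and of 0.55 ± 0.196 from WT (adjusted p = 0.0314, 0.11 without TO-p replicate 1, and 0.187 with the processed signal). Txnip rose by 2.44 in TO, 3.87 in WT and 4.24 in OT, so that the TO response was -1.43 ± 0.296 against WT (adjusted p = 0.00075). Hsph1 rose by 0.67 in TO and stood at -0.75 in WT and -0.41 in OT, differences of 1.42 and 1.09. Myl9 fell by 2.19 in TO, against log2 differences of -0.46 in WT and -0.51 in OT, differences of -1.74 (adjusted p = 1.02e-08) and -1.68 (adjusted p = 3.67e-09). Tcn2 rose less in TO, by 0.47, than in WT (0.98) and OT (1.45), differences of -0.51 (adjusted p = 0.00932, 0.136 with loess alone, and 0.205 without the samples numbered "b") and -0.99 (adjusted p = 1.14e-05). Its mean was nevertheless highest in TO in both media. It was 8.97 in TO-p, 7.9 in WT-p and 7.58 in OT-p, and 9.55 in TO-d, 8.9 in WT-d and 9.06 in OT-d.

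Among the genes whose TO response stood furthest above both others was Tfrc, the transferrin receptor that takes up iron. It lay at 8.27, 7.99, 8.05 and 8.76 in the TO-p samples and at 8.91, 9, 9.07 and 8.95 in the TO-d samples, a rise of 1.74-fold (0.8 ± 0.159, adjusted p = 0.00018). The TO-p samples lay between 7.99 and 8.76 and did not reach the TO-d samples. In WT and OT Tfrc stood at -1.07 and -1.27, so that the TO response was higher by 1.87 ± 0.235 (adjusted p = 5.67e-06) and 2.07 ± 0.23 (adjusted p = 3.99e-07). Flvcr1, a heme exporter, was at 0.1 ± 0.148 in TO (adjusted p = 0.631) and at -1.64 and -1.81 in WT and OT, differences of 1.73 and 1.91. Its mean was 10.47 in TO-p, 11.06 in WT-p and 12 in OT-p, and 10.46 in TO-d, 9.45 in WT-d and 10.28 in OT-d. Angptl4, a lipoprotein lipase inhibitor, lay at 8.33, 8.55 and 8.56 in TO-p replicates 2 to 4, with the spot of replicate 1 left out, and at 10.1, 10.29, 10.59 and 9.73 in TO-d. It rose 3.11-fold in TO (1.64 ± 0.192, adjusted p = 3.5e-07) and stood at -0.17 in WT and -0.83 in OT, differences of 1.8 and 2.46. Its TO-p mean of 8.48 stood beside means of 10.52 in WT-p (3 samples) and 11.14 in OT-p, while the TO-d mean of 10.18 stood beside 10.34 in WT-d and 10.39 in OT-d. Fst (follistatin, an activin antagonist) fell 2.72-fold in TO (-1.44 ± 0.261) and stood at -3.12 in WT and -3.61 in OT on the log2 scale. The difference from WT was 1.68, and 2.44 with the processed signal, and that from OT was 2.17, and 2.79 without the samples numbered "b". Rab32, a small GTPase, was at -0.15 ± 0.115 (adjusted p = 0.3, and 0.0324 with the 8 TO samples fitted alone) against -1.6 and -1.75. Its mean was 8.22 in TO-p, 9.27 in WT-p and 9.84 in OT-p, and 7.99 in TO-d, 7.67 in WT-d and 8.11 in OT-d.

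Furthest below both others in fitted value was Tmem130, a membrane protein, whose log2 difference was -0.18 ± 0.178 in TO (adjusted p = 0.43) against 4.13 in WT and 3.91 in OT. It was well above background in 3 TO-p and 2 TO-d samples only, at 6.27, 6.24, 7.28 and 6.67 and at 6.36, 6.64, 6.47 and 6.37. The differences of responses were -4.31 ± 0.263 (adjusted p = 8.21e-10) and -4.09 ± 0.257 (adjusted p = 3.47e-10), and -4.97 and -4.75 with the processed signal. They rest in part on TO spots that were not well above background, so that their sizes are uncertain. Tubb2b, a tubulin of developing neurons, lay at 12.93, 13.1, 13.49 and 13.26 in the TO-p samples and at 10.99, 12.19, 11.92 and 12.45 in the TO-d samples, a fall of 2.5-fold (-1.32 ± 0.234, adjusted p = 4.68e-05), with TO-d replicate 1 the lowest of its group. The difference was -1.94 within slide 1 and -0.65 within slide 3, each between 1 TO-d and 1 TO-p sample with no dye term. Those of slide 3 were in different dyes. In WT and OT Tubb2b rose by 1.26 and 1.47, differences of -2.58 (adjusted p = 1.08e-05) and -2.79 (adjusted p = 1.23e-06). Fn3k, which repairs glycated proteins, rose by 1.24 ± 0.292 in TO and by 3.76 and 3.72 in the others (difference from OT -2.48, and -3.36 with the processed signal). Its TO-p samples varied between 8.85 and 10.22, and the SD was 0.619 in TO-p and 0.921 in WT-p. Its mean was 9.59 in TO-p, 8.09 in WT-p and 6.89 in OT-p, and 10.99 in TO-d, 11.93 in WT-d and 10.59 in OT-d. Ndrg1, a gene of differentiation and hypoxia, lay at 11.23, 10.8, 10.92 and 10.5 in the TO-p samples and at 11.14, 11.12, 10.18 and 11.24 in the TO-d samples and did not differ beyond the spread (-0.06 ± 0.297, adjusted p = 0.892, and 0.55 with adjusted p = 0.0637 in the 8 TO samples alone), with TO-d replicate 3 the lowest of all 8. It rose by 2.02 in WT and 4.33 in OT, differences of -2.08 (adjusted p = 0.00089) and -4.39 (adjusted p = 8.66e-08). Its mean was 10.86 in TO-p, 11.52 in WT-p (SD 0.815) and 8.83 in OT-p, and 10.92 in TO-d, 13.51 in WT-d and 13.1 in OT-d.

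**Figure D5:**
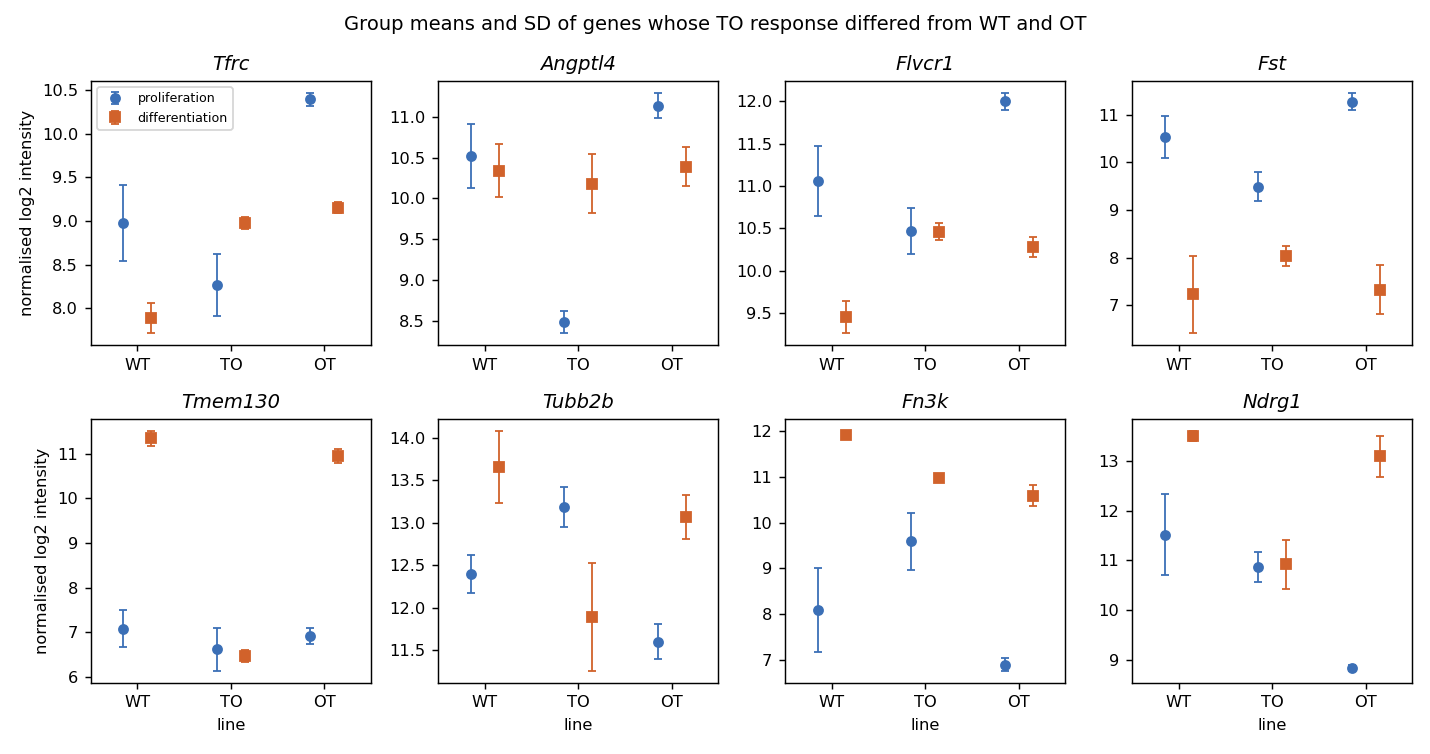
Points give the mean and bars the SD of the 4 samples of each line (3 for Angptl4 in TO-p and in WT-p) in proliferation (circles) and differentiation medium (squares), as normalised log2 intensity on a separate axis for each gene. Tfrc rises in TO and falls in WT and OT, and Tmem130 is near its lowest level in both media in TO.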

How the data were processed

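The authors deposited Agilent scanner files with spot intensities, from Agilent's Feature Extraction software (10.5.1.1, as the file headers state), and a table of processed values, used as an alternative. The intensity of each sample's own dye was corrected with normexp (offset 50), 286 spots with a local background over 2 times the channel median and marked spots were left out, and loess and Aquantile were applied in limma 3.58.1 (R 4.3.3). The highest probe stood for a gene, named through the array's accessions and symbols (8942 genes had several probes). A gene was tested if, in 1 of the 6 groups or more, none of the 4 samples was dim, which left 16241 of 27597. A separate-channel limma model held the 6 groups and dye over all 24 samples, with an intraspot correlation of 0.453 and 17 residual degrees of freedom. P-values were Benjamini-Hochberg adjusted over all genes, and differences are fitted values. Whether replicates were separate cultures is not given, and the spread behind the p-values, which is that between the samples alone, may be technical. The replicate numbers do not pair the samples. Promoters came from RefSeq (GRCm38.p6), without chromosome 18. Named genes were the 15 largest differences each way with no overlap, up to 4 called members a list each way (any member for transmitter, identity, CDK inhibitor and immediate early lists), bounds, the 8 largest response differences each way and 10 fixed genes; some genes that this rule names are not reported here. The members and lists were chosen with earlier results of these data known. Probe names of the array's design can be old. The fit was tested on simulated data.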

Additional observations from a re-analysis of the deposited data

Results flagged for a closer look

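The TO response differed from that of the WT line in 2864 genes above and 3083 below, and from that of the OT line in 2828 above and 3713 below, each tested as a difference of responses with limma. With loess alone there were 4432 above and 1071 below WT, and 3122 above and 2567 below OT. Among the named genes the TO response exceeded the WT and OT responses, on the log2 scale, by 1.87 and 2.07 for Tfrc, 1.8 and 2.46 for Angptl4, 1.73 and 1.91 for Flvcr1, 1.68 and 2.17 for Fst, and 1.45 and 1.6 for Rab32. The same pair of differences was 1.42 and 1.09 for Hsph1 and 0.55 and 2.95 for Osgin1, whose difference from WT did not pass with Agilent's processed signal (adjusted p = 0.187) or without TO-p replicate 1 (0.11). It was -4.31 and -4.09 for Tmem130, -2.58 and -2.79 for Tubb2b, -2.52 and -2.48 for Fn3k, and -2.08 and -4.39 for Ndrg1. For Myl9 it was -1.74 and -1.68, for Txnip -1.43 and -1.8, and for Tcn2 -0.51 and -0.99, of which the first did not pass with loess alone (adjusted p = 0.136) or without the samples numbered "b" (0.205).

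In 7 of 99 groups of 4 samples whose levels are printed, 1 sample stood apart from the others by Dixon's criterion, which chance meets in about 1 group of 20. TO-d replicate 3 was the lowest of its group for Ndrg1, at 10.18 against 11.12 to 11.24, for Hspa5, at 15.05 against 15.33 to 15.38, and for Cdkn1a, at 9.68 against 9.87 to 9.88. TO-p replicate 3 was the highest for Plekhg1, at 7.37 against 6.68 to 6.73, and for Spry1, at 9.67 against 9.41 to 9.45. Txnip was lowest in TO-p replicate 4, at 8.86 against 9.42 to 9.5, and Cpt1a in TO-d replicate 4, at 11.35 against 11.48 to 11.5.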

How the results depend on the processing

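The total counts of changed genes, of called list members and of differences in response, over both directions, stayed within 1.5 times under all alternatives run, except that 2066 genes changed over 2-fold with Agilent's processed signal (975 higher, 1091 lower) against 1152. By direction, the differences from WT were 4432 above and 1071 below with loess alone against 2864 and 3083, and with every probe tested singly 4711 above and 4131 below WT and 4633 above and 4761 below OT. Of single genes, 15 differences between media and 4 response differences moved by over 1.5 times with the processed signal, 1 difference between media with the 8 TO samples alone, 1 response difference without the samples numbered "b", and 4, 1 and 1 within the 3 slides. The cause was not tested. Leaving out a TO sample in turn gave 7370 to 8396 changed genes against 8507, 1096 to 1202 over 2-fold, 674 to 754 called list members, 4931 to 6223 genes that differed from WT and 5547 to 6736 from OT. The counts were lower without the samples numbered "b" of all groups, which may repeat a culture or RNA. There were then 7057 changed genes, 1195 over 2-fold and 649 called list members. From WT 4092 genes differed, against 5947, and from OT 4966, against 6541. With the replicate number as a block there were 8452 changed genes, 1164 over 2-fold, 5843 against WT and 6503 against OT. The numbers do not pair the samples. Deviations of each sample from its group mean, with the dye effect taken out, were correlated over genes. Same-numbered TO-p and TO-d samples had correlations of 0.163, -0.145, 0.00848 and -0.257. TO-p replicate 2 and TO-d replicate 4, on 1 array, had 0.513. Tested singly, 12458 of 24349 probes changed. Within the 3 slides the differences had the pooled sign in 98.7, 99.7 and 99.4% of called genes. These genes were called from the pooled fit of the same samples, so that the shares are high by the choice and are no separate test. Slides 1 and 3 held 1 TO-d and 1 TO-p sample each, and the differences within slides had no dye term. Counts in lists that moved over 1.5 times were those of ribosomal proteins that rose (6 with the processed signal or no dye term, 7 without the samples numbered "b"), of unfolded protein response and oxidative phosphorylation genes that fell (6 and 13 with loess alone), of glycolysis and hypoxia genes that rose (8 without the samples numbered "b", 23 with the 8 TO samples alone), and of catecholamine genes that rose (3 without the samples numbered "b"). A local background rule of 5 times the median, chosen after the data were seen, changed none of these total counts by 1.5 times. The arrays give no counts, so dim probes and the number of samples limit the precision.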

Other observations

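Guidance, adhesion and death genes were also measured in the TO line and show both directions. Of 41 tested genes of axon guidance and growth 17 rose, 8 fell and 16 did not pass (median log2 difference 0.13). Sema4f, a membrane semaphorin, lay at 9.31, 9.51, 9.22 and 9.07 in the TO-p samples and at 10.48, 10.59, 10.51 and 10.58 in the TO-d samples and rose 2.3-fold (1.2 ± 0.0799, adjusted p = 1.52e-11), and Sema6a and Cntn2, an axonal adhesion protein, rose 2.11-fold (1.07 on the log2 scale, and 1.83 with Agilent's processed signal) and 1.96-fold. Sema4a fell 2.05-fold and the semaphorin receptor Plxnb1 1.81-fold. In the Notch and Wnt list 16 of 39 genes fell, 5 rose and 18 did not pass. The Wnt receptor Fzd7 lay at 7.94, 8.52, 8.58 and 8.12 in the TO-p samples and at 10.05, 9.94, 9.84 and 10.06 in the TO-d samples and rose 3.06-fold (adjusted p = 1.48e-10), and the Notch ligand Jag1 rose 1.95-fold while Jag2 fell 1.8-fold. Tcf7l2, a nuclear partner of beta-catenin, fell 2.32-fold and the secreted Wnt inhibitor Dkk1 1.81-fold.

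Of 45 genes of the extracellular matrix, adhesion and proteases 17 fell, 10 rose and 18 did not pass. Lama4, a laminin chain, lay at 9.66, 9.73, 9.61 and 9.68 in the TO-p samples and at 11.58, 11.57, 11.53 and 11.49 in the TO-d samples and rose 3.55-fold (1.83 ± 0.0685, adjusted p = 5.31e-16), Plat, tissue plasminogen activator, rose 2.14-fold and the proteoglycan Gpc1 2.02-fold. The fibulins Fbln1 and Fbln2 fell 2.16-fold and 1.94-fold. Of 30 p53 targets and apoptosis genes 9 rose, 7 fell and 14 did not pass, shares near those of all genes. Trp53inp1 rose 2.56-fold (1.36 ± 0.247, adjusted p = 6.57e-05, and 2.19 between the 1 TO-d and 1 TO-p sample of slide 1) and the survival gene Bcl2 2.24-fold, and Bak1, which opens mitochondria in apoptosis, fell 2.1-fold.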
